A study of Mus musculus with 6 samples.

Results

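Transcripts of 9 genes of the tumour necrosis factor (TNF) superfamily were examined in cultured mouse macrophages given IL-4 with or without the neuropeptide CGRP. The 9 genes were chosen by name from a deposited table of 57180 genes: the ligand genes Tnf, Tnfsf9, Tnfsf12, Tnfsf13, Tnfsf13b and Tnfsf14, and the receptor genes Tnfrsf1a, Tnfrsf1b and Tnfrsf21. All 9 were found, each in 1 row. The cells were bone marrow-derived macrophages of wild-type mice aged 6 to 8 weeks, grown from marrow in M-CSF (20 ng/mL, 7 days), so every library shares that background. The IL-4+CGRP group (3 libraries) received IL-4 and CGRP and the IL-4 group (3 libraries) received IL-4 alone, for 24 h. IL-4 was given at 20 ng/mL, and the dose of CGRP is left out since its label is ambiguous. IL-4 is a cytokine that drives alternative activation of macrophages, and CGRP is a peptide released by sensory nerves. All cultures received IL-4, so no level without IL-4 was measured. Strain and sex, and whether replicates were separate animals or cultures, are not stated in the labels, and p-values then measure the spread between these libraries, which may be technical.

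TNF superfamily ligands are mostly made as trimeric proteins anchored in the membrane, and several are cut off to act at a distance. Their receptors carry cysteine-rich repeats outside the cell. Inside, some carry a death domain, through which they can start cell death, and others bind TRAF adaptors that switch on NF-kB. Macrophages are a main source of TNF itself, whose release is known to be controlled at transcription, at mRNA decay and at shedding from the membrane.

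The libraries held between 20088895 and 24060444 counts. Values are given as CPM (CPM divides a count by the library's TMM-scaled total) for comparing libraries, and as TPM for comparing genes. TPM divides a count by the length the authors list for the gene, then by the library's sum of such values. It uses no TMM factor, so it also scales the libraries differently. Macrophage markers were high in both groups: Adgre1 averaged 2101 ± 77.5 CPM in IL-4+CGRP and 2264 ± 39.4 CPM in IL-4, and Csf1r 3711 ± 132 and 3486 ± 91.9 CPM (SD, n = 3 each). Of the 8 macrophage markers, all tested, 2 were called higher by edgeR and 0 lower: Itgam (554 ± 38.99 CPM in IL-4+CGRP and 417 ± 9.71 CPM in IL-4) and Cd14 (37.9 ± 0.507 and 24.8 ± 1.98 CPM). Their summed level was 13840 to 14110 CPM in IL-4+CGRP and 13620 to 13850 CPM in IL-4, and its part in the results was not tested. IL-4+CGRP replicate 2 stood apart from its group. Its score on the leading principal component, which held 37.6% of variance, was -0.17. The other IL-4+CGRP libraries scored 21.98 and 27.05 and the IL-4 libraries -25.97 to -11.22, so values without replicate 2 are given where they differ in call. That component also separated the groups, and replicate 2 was the IL-4+CGRP library nearest to IL-4 on it. Leaving out the library nearest the other group tends to add calls, so calls gained that way are not independent evidence. In RNA from whole cultures, fewer cells that express a gene and less RNA per cell cannot be told apart.

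Tnfsf14, which encodes the ligand LIGHT, was the 1 gene called higher with CGRP by edgeR, of the 8 members that were tested. Its promoter window is shown with that of Tnfsf13b, the member with the largest negative fold change (not called), and that of Tnf, whose transcript gave no call. All 3 are RefSeq sequences of build GRCm38.p6, running from 250 bases before to 50 bases after an annotated start site, 5′ to 3′ on the gene's strand. RefSeq windows were matched by symbol for 7 of the 9 members. The Tnfsf14 window is at chr17:57194132-57194431 (minus strand), the first of 2 listed for Tnfsf13b at chr8:10006217-10006516 (plus strand) and the Tnf window at chr17:35201958-35202257 (minus strand). Capitals mark matches to the motifs named after the sequences.
Tnfsf14: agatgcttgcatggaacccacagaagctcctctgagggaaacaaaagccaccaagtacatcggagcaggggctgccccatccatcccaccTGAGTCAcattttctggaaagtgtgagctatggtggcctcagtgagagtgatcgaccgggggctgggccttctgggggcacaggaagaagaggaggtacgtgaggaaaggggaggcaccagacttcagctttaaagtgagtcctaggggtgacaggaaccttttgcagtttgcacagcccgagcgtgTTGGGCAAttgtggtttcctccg
Tnfsf13b: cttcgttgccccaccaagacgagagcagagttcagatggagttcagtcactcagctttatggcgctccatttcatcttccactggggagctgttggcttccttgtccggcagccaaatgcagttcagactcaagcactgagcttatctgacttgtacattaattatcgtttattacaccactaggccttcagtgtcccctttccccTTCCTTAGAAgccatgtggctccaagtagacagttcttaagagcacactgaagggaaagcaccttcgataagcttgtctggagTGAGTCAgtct
Tnf: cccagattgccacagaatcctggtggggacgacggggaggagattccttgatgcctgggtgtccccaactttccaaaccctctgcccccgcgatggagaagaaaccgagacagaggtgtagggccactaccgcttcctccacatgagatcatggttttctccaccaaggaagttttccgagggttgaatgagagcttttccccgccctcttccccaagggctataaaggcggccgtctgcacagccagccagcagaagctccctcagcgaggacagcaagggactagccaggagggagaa
Both strands were searched for the cAMP response element (TGACGTCA), its core (TGACG), an AP-1 site (TGANTCA), a C/EBP site (TTGCNNAA) and the STAT6 and kappaB consensus sites. The core lies within the full cAMP response element, and the other patterns can overlap by chance. In Tnfsf14 an AP-1 match (TGAGTCA) began 160 bases before the start site, at position -160, and a C/EBP match (TTGGGCAA) at position 28. The Tnfsf13b window held the same AP-1 letters at position 40 and a STAT6 match (TTCCTTAGAA) at position -44, and its second window, not shown, also held a C/EBP match (TTGAGCAA) at position 8. Tnfsf13, which was not called, held TGAGTCA at position -133. The Tnf window held none of the 6 patterns. Among 32851 windows of all genes, 7.81% held the AP-1 pattern, 10.8% the C/EBP pattern, 6.95% the STAT6 pattern, 8.46% the kappaB consensus, 20.81% the core and 1.79% the full cAMP response element. These matches describe the letters of the windows only, and binding was not measured.

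**Figure D1:**
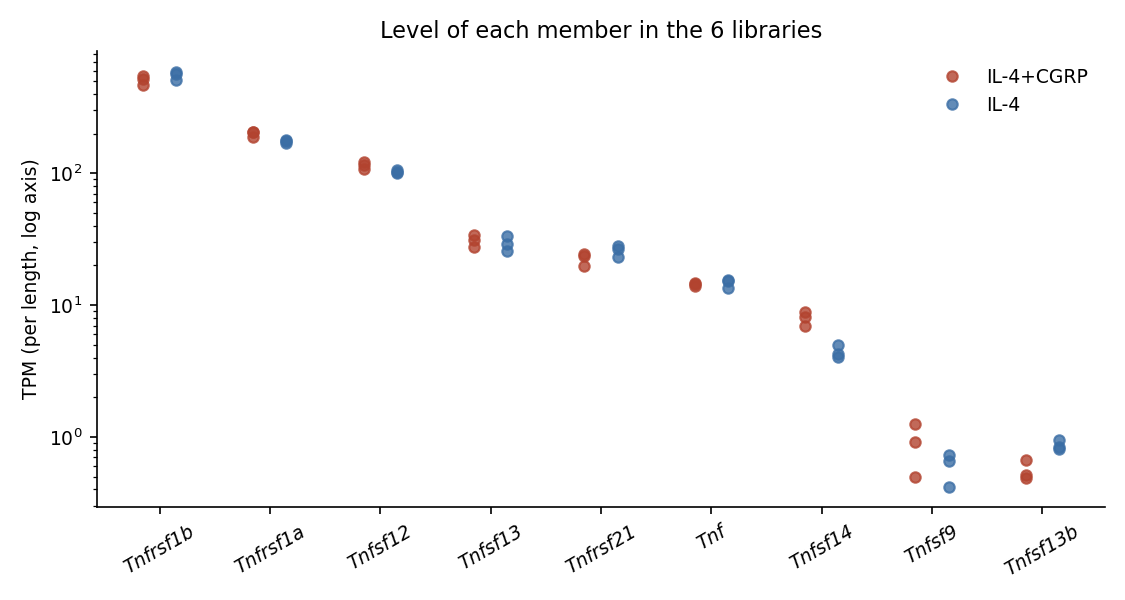
TPM on a log axis for each of the 9 members, ordered by their mean in IL-4+CGRP, with 1 point per library (red, IL-4+CGRP; blue, IL-4; 3 libraries each). Tnfrsf1b, at 464 to 541 TPM in IL-4+CGRP and 510 to 591 TPM in IL-4, lies above every other member, and Tnfsf9 and Tnfsf13b lie near 1 TPM.

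Per unit of length, the receptor genes Tnfrsf1b and Tnfrsf1a were the most abundant of the 9 transcripts. Tnfrsf1b averaged 509 ± 40.2 TPM in IL-4+CGRP and 555 ± 41.3 TPM in IL-4, and Tnfrsf1a 199.5 ± 8.74 and 175 ± 3.77 TPM (SD, n = 3 each). Tnfsf12 came next, with 115 ± 6.51 TPM in IL-4+CGRP and 103 ± 3.17 TPM in IL-4. Tnfsf13 (31.04 ± 3.10 and 29.3 ± 3.91 TPM) and Tnfrsf21 (22.5 ± 2.46 and 25.9 ± 2.44 TPM) were not separated, since their ranges over the 6 libraries overlapped. Tnf followed with 14.5 ± 0.371 TPM in IL-4+CGRP and 14.7 ± 0.977 TPM in IL-4. Tnfsf14 had 7.98 ± 0.997 TPM in IL-4+CGRP and 4.43 ± 0.510 TPM in IL-4. The lowest levels were those of Tnfsf9 (0.886 ± 0.377 and 0.602 ± 0.162 TPM) and Tnfsf13b (0.557 ± 0.0998 and 0.868 ± 0.0727 TPM), whose ranges also overlapped. The other 6 neighbouring pairs in this order were separated in 6 of 6 libraries.

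Of the 9 members, 8 passed the filter on low counts and were tested over all 13260 genes that passed it. By edgeR's quasi-likelihood test with Benjamini-Hochberg adjustment, 1 member rose and 0 fell, against 3.85% of all tested genes called in either direction, 2.32% higher and 1.54% lower. At an unadjusted p under 0.05, 2 members were higher and 3 lower, beside 1142 higher and 956 lower of the 13260 genes, and DESeq2 and limma-voom each called 1 higher and 0 lower. In CPM, groups did not overlap for 6 of the 8 tested members, 3 higher and 3 lower, against 21.0% of all tested genes. Of these, Tnfrsf1b and Tnfrsf21 overlapped on the TPM scale. The members were chosen with earlier results of these libraries known, so this share is not independent evidence. The members' median log2 fold change was -0.028, beside -0.004 over all tested genes.

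**Figure D2:**
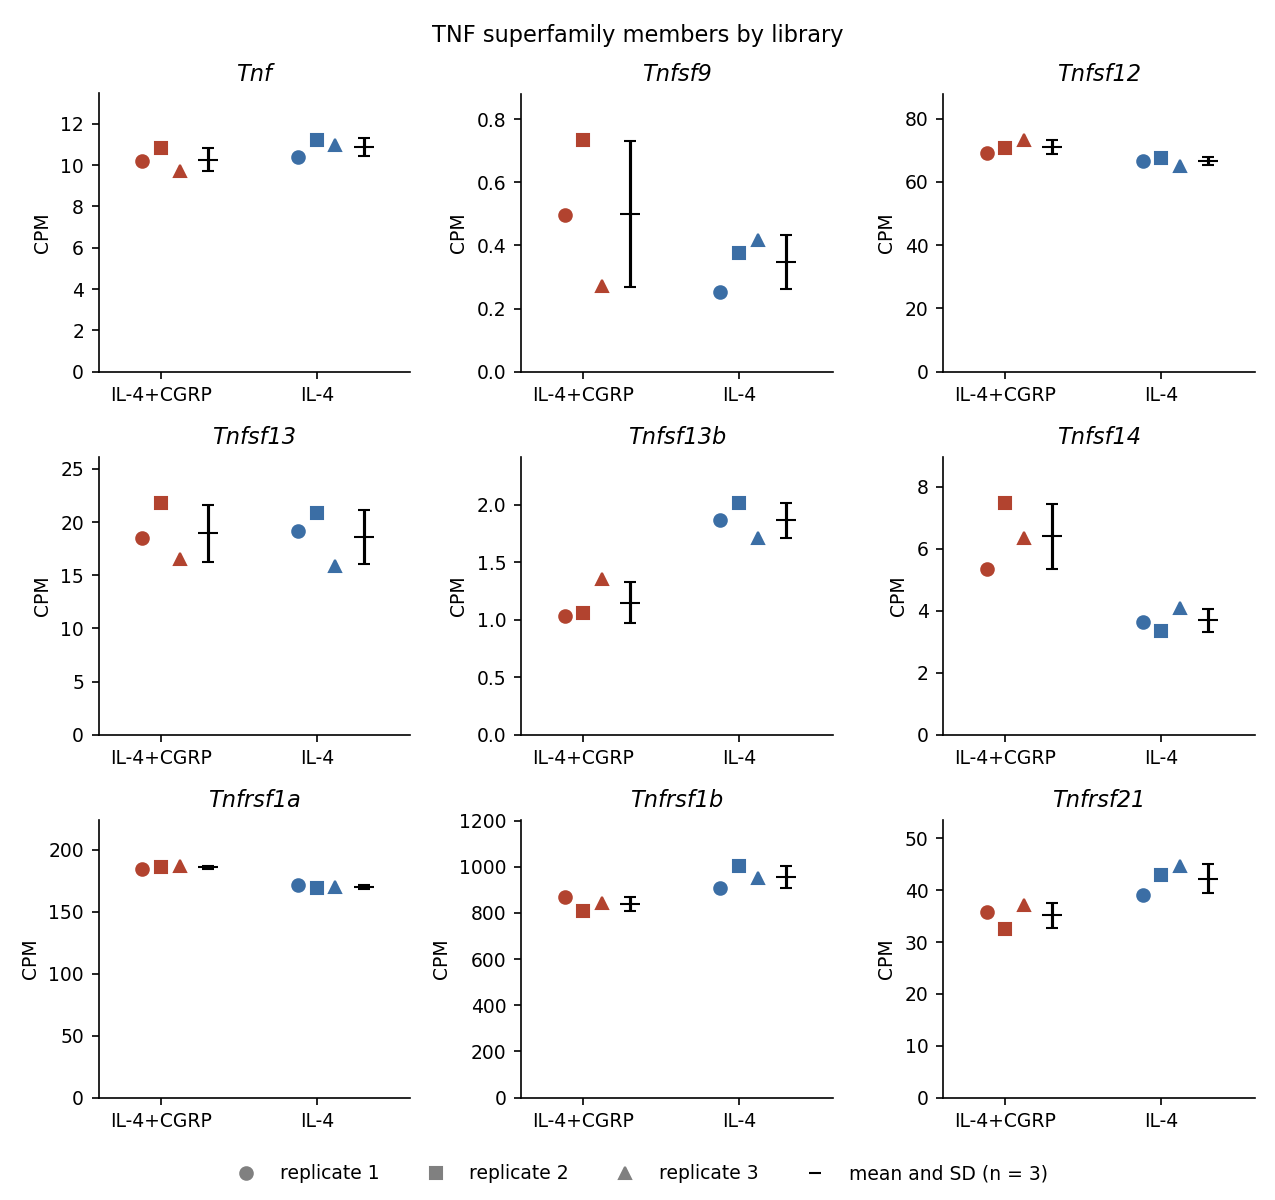
CPM of each of the 9 members in the 6 libraries, with IL-4+CGRP at left in red and IL-4 at right in blue; symbols mark the replicate number and black bars the mean and SD (n = 3), and each axis starts at 0. Tnfsf14 lies between 5.36 and 7.48 CPM in IL-4+CGRP and between 3.33 and 4.09 CPM in IL-4, while the Tnf and Tnfsf13 groups overlap.

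Among the ligands, Tnfsf14 had 5.36, 7.48 and 6.35 CPM in IL-4+CGRP replicates 1 to 3, against 3.64, 3.33 and 4.09 CPM in IL-4 replicates 1 to 3 (130, 163 and 141 counts against 72, 71 and 98). All 3 IL-4+CGRP libraries were above all 3 IL-4 libraries, and IL-4+CGRP replicate 2 was the highest. Tnfsf14 was 1.73-fold higher, or 0.79 ± 0.16 (SE) on the log2 scale (edgeR adjusted p = 0.0161). LIGHT is a costimulatory ligand known mainly from T cells and immature dendritic cells. The call ended without IL-4 replicate 1 (edgeR adjusted p = 0.0702) or IL-4 replicate 2 (edgeR adjusted p = 0.107). It also ended in a fit with the replicate number as a block (edgeR adjusted p = 0.0573). Over the alternatives the adjusted p spanned 5.8e-05 to 0.107, while the fold change stayed between 0.65 and 0.90 on the log2 scale. Without IL-4+CGRP replicate 2 it was 0.66 ± 0.16 (SE; edgeR adjusted p = 0.0100).

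Markers of both cell types were examined beside Tnfsf14. The summed level of 8 T cell markers was 86.7 to 91.1 CPM in IL-4+CGRP and 77.8 to 86.9 CPM in IL-4; most of it was Cd4, with 80.6 ± 2.43 and 73.9 ± 3.71 CPM (SD, n = 3 each), and Cd3e averaged 0.378 and 0.318 CPM. None of the 8 was at 0 in every library, 5 were tested and 0 were called by edgeR. The summed level of 7 dendritic cell markers was 88.9 to 97.2 CPM in IL-4+CGRP and 170 to 178 CPM in IL-4. Most of it was the 1 gene Itgax, with 62.9 ± 5.35 CPM in IL-4+CGRP and 149 ± 3.91 CPM in IL-4. Ccr7 had 27.5 ± 0.780 and 19.9 ± 1.63 CPM, and Siglech 0.638 ± 0.290 and 1.98 ± 0.495 CPM (SD, n = 3 each). Of the 6 tested, Itgax and Siglech fell and Ccr7 rose. Flt3 (0.74 and 0.65 CPM on average), Zbtb46 (0.98 and 1.05 CPM) and Clec9a (0.83 and 1.31 CPM) were low in both groups and not called. Xcr1, specific to 1 dendritic cell subset, averaged 0.0441 and 0.0464 CPM and was not tested. The summed level thus mostly follows Itgax. The part of these cells in the Tnfsf14 result was not tested.

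Both receptors of LIGHT were detected at higher TPM than their ligand. Tnfrsf14, which encodes HVEM, had 28.6, 26.6 and 28.3 CPM in IL-4+CGRP, against 23.2, 23.8 and 23.7 CPM in IL-4. The groups did not overlap, but the log2 fold change of 0.24 ± 0.07 (SE) did not pass (edgeR adjusted p = 0.0954). Ltbr, the lymphotoxin beta receptor, averaged 93.9 ± 4.45 CPM in IL-4+CGRP and 88.3 ± 4.997 CPM in IL-4 (SD, n = 3 each; edgeR adjusted p = 0.536), and its groups overlapped. Per length, Tnfrsf14 stood at 54.96 ± 4.49 TPM in IL-4+CGRP and 44.6 ± 1.83 TPM in IL-4, and Ltbr at 103 ± 9.34 and 93.1 ± 7.85 TPM (SD, n = 3 each).

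Tnf, the founding ligand of the family, had 10.2, 10.8 and 9.73 CPM in IL-4+CGRP, against 10.4, 11.2 and 10.97 CPM in IL-4. The groups overlapped. Its log2 fold change was -0.08 ± 0.10 (SE), with a 95% interval of -0.29 to 0.13 (edgeR adjusted p = 0.730), so a change of the size seen for Tnfsf14 lay outside the interval. The miss of the threshold does not show that the levels were equal.

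Tnfsf13b encodes BAFF, a survival factor of B cells that myeloid cells are known to make. It had 1.03, 1.06 and 1.35 CPM in IL-4+CGRP, against 1.87, 2.02 and 1.71 CPM in IL-4, from 25, 23 and 30 counts against 37, 43 and 41. All 3 IL-4+CGRP libraries were below all 3 IL-4 libraries. The log2 fold change was -0.70 ± 0.24 (SE; 95% interval -1.23 to -0.17), and it did not pass at these counts (edgeR adjusted p = 0.166). Its receptor gene Tnfrsf13b (TACI) averaged 31.6 ± 2.03 CPM in IL-4+CGRP and 28.3 ± 1.12 CPM in IL-4, and Tnfrsf13c (the BAFF receptor) 1.43 ± 0.296 and 1.66 ± 0.237 CPM (SD, n = 3 each). Neither passed (edgeR adjusted p = 0.321 for Tnfrsf13b and 0.732 for Tnfrsf13c). B cell markers, on whose cells both receptors are known, were detected in both groups: 6 of 6 were tested, 0 were called by edgeR, and their sum was 77.0 to 92.5 CPM in IL-4+CGRP and 82.5 to 87.5 CPM in IL-4. The part of such cells in the receptor levels was not tested.

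Tnfsf12 (TWEAK) and Tnfsf13 (APRIL) lie next to each other on 1 strand and share exons with the read-through gene Tnfsfm13. All 6 values of each of the 3 genes were not whole. How reads were assigned among them is not stated, so their single values are uncertain. Tnfsf12 took 56.5% to 64.0% of the joint counts in IL-4+CGRP and 56.9% to 60.9% in IL-4, Tnfsf13 14.4% to 17.4% and 14.8% to 18.3%, and Tnfsfm13 21.6% to 26.0% and 22.2% to 26.9%. Tnfsf12 had 69.1, 70.7 and 73.3 CPM in IL-4+CGRP, against 66.6, 67.7 and 65.1 CPM in IL-4. Those groups did not overlap, and the difference was 0.095 ± 0.053 (SE) on the log2 scale (edgeR adjusted p = 0.420). Tnfsf13 had 18.5, 21.8 and 16.5 CPM in IL-4+CGRP, against 19.1, 20.9 and 15.9 CPM in IL-4, and its groups overlapped (edgeR adjusted p = 0.938). Summed over the 3 genes, the locus had 117 ± 6.96 CPM in IL-4+CGRP and 113 ± 5.24 CPM in IL-4 (SD, n = 3 each), a log2 fold change of 0.06 ± 0.06 (SE; edgeR adjusted p = 0.712). For the sum the groups overlapped. The receptor of TWEAK, Tnfrsf12a (Fn14), averaged 3.71 ± 1.03 CPM in IL-4+CGRP and 4.70 ± 0.339 CPM in IL-4 (SD, n = 3 each; edgeR adjusted p = 0.418).

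Tnfsf9, the ligand of the costimulatory receptor CD137, was close to the limit of detection. It had 12, 16 and 6 counts in the IL-4+CGRP libraries, against 5, 8 and 10 in the IL-4 libraries, and was the 1 member that did not pass the filter. The groups overlapped. With no filter its log2 fold change was 0.50 ± 0.54 (SE; edgeR adjusted p = 0.699), so no difference was detectable at this depth. Tnfrsf9, which encodes CD137, averaged 1.55 ± 0.241 CPM in IL-4+CGRP and 1.25 ± 0.118 CPM in IL-4 (SD, n = 3 each; edgeR adjusted p = 0.607).

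The 2 receptors of TNF leaned in opposite directions, each by a small amount that did not pass the test. Tnfrsf1a, which encodes the death domain receptor TNFR1, had 184, 186 and 187 CPM in IL-4+CGRP, against 172, 169 and 170 CPM in IL-4. Tnfrsf1b, which encodes TNFR2, a receptor without a death domain that binds TRAF adaptors, had 868, 808 and 841 CPM in IL-4+CGRP, against 907, 1004 and 953 CPM in IL-4. For neither gene did the groups overlap. The log2 fold change was 0.13 ± 0.05 (SE) for Tnfrsf1a (edgeR adjusted p = 0.195) and -0.19 ± 0.05 (SE) for Tnfrsf1b (edgeR adjusted p = 0.0577). On the TPM scale, which scales libraries without the TMM factor, the Tnfrsf1b groups overlapped (464 to 541 TPM in IL-4+CGRP, 510 to 591 TPM in IL-4). The Tnfrsf1a groups did not. Separation of the Tnfrsf1b groups thus depended on how libraries were scaled.

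Without IL-4+CGRP replicate 2, Tnfrsf1b passed as lower, at -0.16 ± 0.04 (SE; edgeR adjusted p = 0.0192; 1.6e-04 to 0.274 across settings), and Tnfrsf1a did not pass (edgeR adjusted p = 0.0680). Leaving out IL-4 replicate 1 as well was a choice made after seeing the data. In that fit Tnfrsf1a passed as higher, at 0.13 ± 0.04 (SE) with an edgeR adjusted p = 0.0183. Across settings its edgeR adjusted p spanned 0.0183 to 0.529. Without IL-4+CGRP replicate 2, 13.8% of all tested genes were called (6.78% higher, 7.04% lower), beside 1 of the 8 tested members higher and 2 lower; without both libraries it was 16.9% (7.97% higher, 8.88% lower), beside 2 higher and 2 lower. With no count filter 4.28% of genes were called (2.46% higher, 1.83% lower), beside 1 of the 9 members higher and 2 lower.

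The Tnfrsf1a to Tnfrsf1b ratio of TPM within a library does not depend on how libraries are scaled. It was 0.376, 0.408 and 0.394 in IL-4+CGRP replicates 1 to 3, against 0.335, 0.298 and 0.316 in IL-4 replicates 1 to 3. All 3 IL-4+CGRP libraries were above all 3 IL-4 libraries, by 0.0765 on average (0.393 ± 0.0161 against 0.316 ± 0.0188; SD, n = 3 each). A two-sided exact permutation test gave p = 0.1, the smallest that 3 against 3 libraries allow. The ratio was chosen after the 2 genes' values were seen. In CPM both genes already separated the groups, in opposite directions, so the outcome of this test was fixed beforehand. The ratio is thus a description of these libraries.

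Tnfrsf21 encodes DR6, a death domain receptor known from neurons and lymphocytes. It had 35.8, 32.5 and 37.1 CPM in IL-4+CGRP, against 39.2, 42.9 and 44.7 CPM in IL-4, with groups that did not overlap. The log2 fold change of -0.27 ± 0.07 (SE) did not pass (edgeR adjusted p = 0.0801; 0.00234 to 0.276 across settings). It passed as lower without IL-4+CGRP replicate 2 (-0.22 ± 0.07, SE; edgeR adjusted p = 0.0444). On the TPM scale its groups overlapped, at 19.7 to 24.25 TPM in IL-4+CGRP and 23.2 to 27.9 TPM in IL-4.

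**Figure D3:**
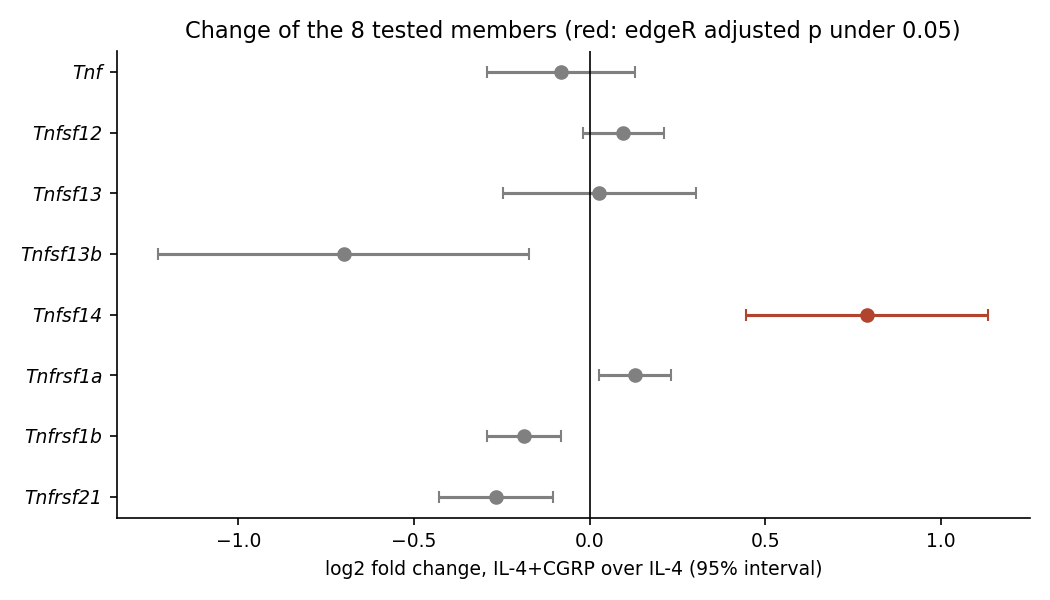
Log2 fold change of IL-4+CGRP over IL-4 for the 8 tested members, ligands above receptors, with points for the edgeR estimate and bars for its 95% interval (n = 3 libraries each). The Tnfsf14 interval, 0.44 to 1.13, is the 1 drawn in red as called, and those of Tnf, Tnfsf12 and Tnfsf13 include 0.

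**Figure D4:**
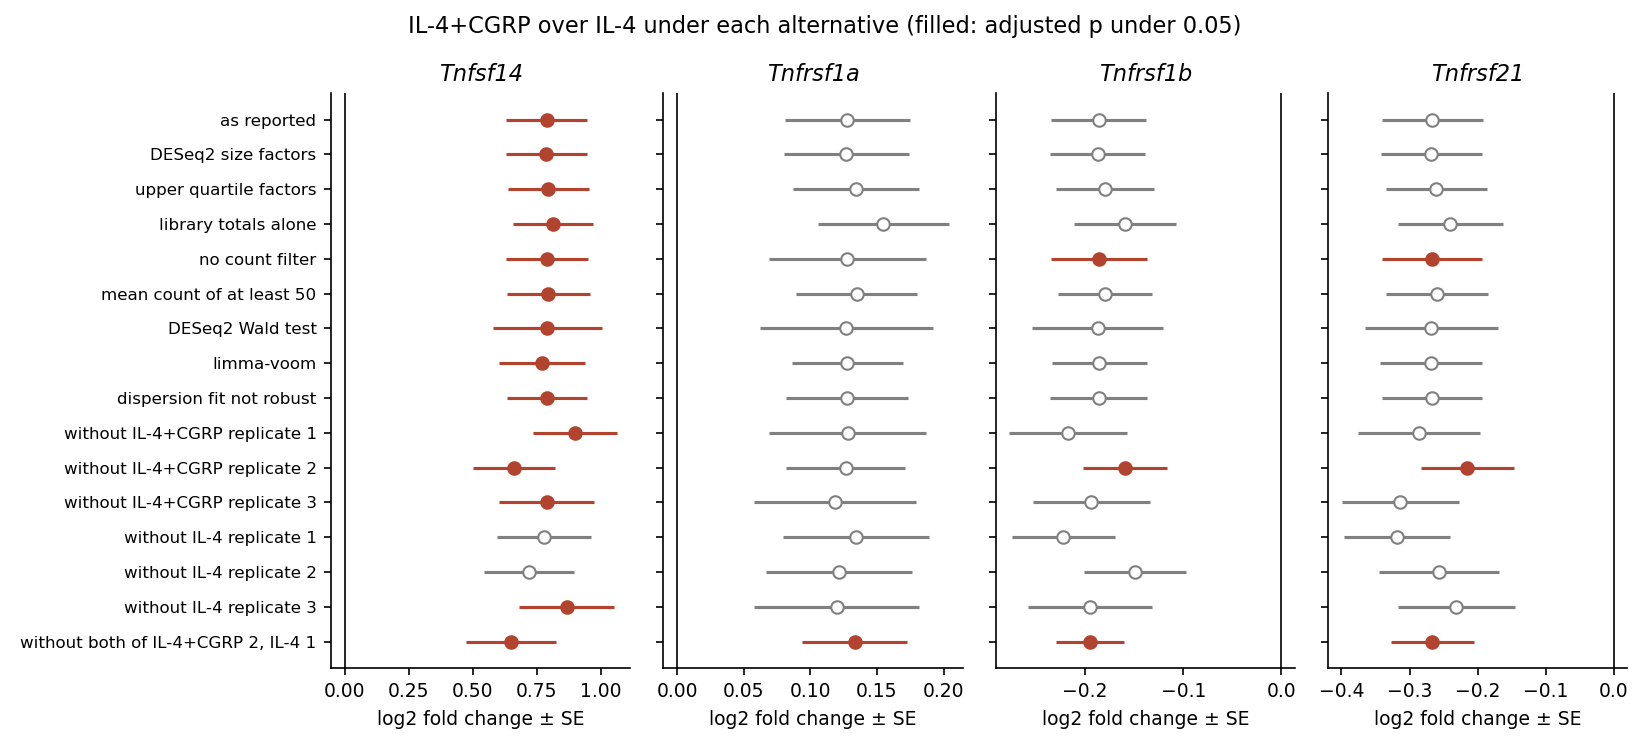
Log2 fold change ± SE of Tnfsf14, Tnfrsf1a, Tnfrsf1b and Tnfrsf21 as reported and under 15 alternatives (the replicate block is not drawn), filled where the adjusted p was under 0.05; each panel has its own horizontal scale. Tnfsf14 and Tnfrsf1a stay above 0 and Tnfrsf1b and Tnfrsf21 below 0 in every row, while the calls of Tnfrsf1b and Tnfrsf21 appear with no count filter, without IL-4+CGRP replicate 2 and without both libraries.

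Other genes of the family were counted for comparison from lists of known members, against the 3.85% of all tested genes called. Of 12 other ligand genes, 5 passed the filter and 0 were called by edgeR (1 at an unadjusted p under 0.05; 0 by DESeq2 and by limma-voom). Tnfsf4, which encodes OX40 ligand, had 0.743, 1.01 and 0.721 CPM in IL-4+CGRP, against 1.52, 1.13 and 1.42 CPM in IL-4, with a log2 fold change of -0.71 ± 0.29 (SE; edgeR adjusted p = 0.244). Its groups did not overlap, and its direction was that of Tnfsf13b. Tnfsf10 (TRAIL) averaged 18.1 ± 1.19 CPM in IL-4+CGRP and 16.7 ± 1.07 CPM in IL-4 (SD, n = 3 each; edgeR adjusted p = 0.567).

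Of 25 other receptor genes, 18 were tested, 1 rose and 0 fell, beside 3.85% of all tested genes called. Their median log2 fold change was 0.14, beside -0.004 over all tested genes. At an unadjusted p under 0.05, 3 were higher and 0 lower, beside 1142 higher and 956 lower of the 13260 genes tested. DESeq2 and limma-voom each called 1 higher and 0 lower. Without IL-4+CGRP replicate 2, 2 of these receptors were called higher and 1 lower, beside 6.78% and 7.04% of all tested genes. The 1 that rose with all 6 libraries was Tnfrsf26, a mouse receptor gene related to the TRAIL receptors. It had 20.3, 21.5 and 21.7 CPM in IL-4+CGRP, against 14.2, 13.9 and 15.0 CPM in IL-4, 1.47-fold higher with an edgeR adjusted p = 0.00263. The groups did not overlap, and its counts were whole in all 6 libraries. The antisense gene E230032D23Rik, which overlaps it, had 148 counts over the 6 libraries. Its tandem relatives Tnfrsf22 and Tnfrsf23, whose values were not whole in 6 and 5 of the 6 libraries, did not pass (edgeR adjusted p = 0.549 and 0.620).

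Genes that act beside TNF and its receptors were counted in the same way, against the 3.85% of all tested genes called. At an unadjusted p under 0.05, 1142 of the 13260 tested genes were higher and 956 lower. Of 25 genes of the receptor signalling complex, all tested, 0 were called by edgeR, DESeq2 or limma-voom; at an unadjusted p under 0.05, 4 were higher and 1 lower. Birc3, an inhibitor of apoptosis protein that binds TRAF proteins, averaged 74.2 ± 4.59 CPM in IL-4+CGRP and 63.5 ± 0.996 CPM in IL-4 (SD, n = 3 each; edgeR adjusted p = 0.0598). Map3k14, the kinase NIK of the alternative NF-kB pathway that LIGHT and BAFF receptors use, averaged 51.0 ± 1.66 CPM in IL-4+CGRP and 43.6 ± 2.82 CPM in IL-4 (SD, n = 3 each; edgeR adjusted p = 0.0945). Without IL-4+CGRP replicate 2, 5 genes of this complex passed as higher and 1 as lower. In that setting 6.78% of all tested genes were called higher and 7.04% lower. Among the 5 were Birc3 (edgeR adjusted p = 0.00501, and 0.00159 to 0.307 across settings) and Map3k14 (edgeR adjusted p = 0.0460, and 0.0247 to 0.323 across settings). Birc3 also passed with upper quartile scaling and with library totals alone, and both genes passed with no count filter. In the death branch 0 of 9 were called by edgeR, DESeq2 or limma-voom, and 2 were higher at an unadjusted p under 0.05. These were Bid, a BH3 protein cut by caspase 8 (53.3 ± 1.24 and 48.0 ± 0.886 CPM; edgeR adjusted p = 0.194), and Cflar, a caspase 8 inhibitor (230 ± 5.88 and 213 ± 3.78 CPM; edgeR adjusted p = 0.291; SD, n = 3 each). Without IL-4+CGRP replicate 2, Bid passed as higher (edgeR adjusted p = 0.0484; 0.0245 to 0.517 across settings).

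Of 16 genes listed for TNF shedding and control of its mRNA, 1 rose and 0 fell, beside 2.32% and 1.54% of all tested genes. At an unadjusted p under 0.05, 2 were higher and 2 lower, and DESeq2 and limma-voom called 0 lower. Zfp36l1, an RNA-binding protein of the tristetraprolin family that promotes decay of mRNAs with AU-rich elements, had 339, 319.5 and 352.5 CPM in IL-4+CGRP, against 245, 282 and 275 CPM in IL-4, 1.26-fold higher (edgeR adjusted p = 0.00927). The call ended without IL-4+CGRP replicate 1 (edgeR adjusted p = 0.0591) or IL-4 replicate 3 (edgeR adjusted p = 0.0567). It also ended in a fit with the replicate number as a block (edgeR adjusted p = 0.0515). Across settings the adjusted p spanned 2.6e-07 to 0.0591. Adam17, the protease that sheds TNF and both of its receptors, averaged 179 ± 7.33 CPM in IL-4+CGRP and 189 ± 1.49 CPM in IL-4 (SD, n = 3 each; edgeR adjusted p = 0.518).

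Of 20 genes known as NF-kB targets of TNF, 17 were tested, 5 rose and 0 fell, beside 2.32% and 1.54% of all tested genes. Their median log2 fold change was 0.12, while Tnf itself gave no call. No target had an unadjusted p under 0.05 in the lower direction, and DESeq2 and limma-voom called 4 higher and 0 lower. The 5 were Ptgs2 (7.71 ± 0.438 and 2.01 ± 0.171 CPM), Il1b (2.75 ± 0.743 and 1.07 ± 0.134 CPM), Tnfaip2 (231 ± 4.41 and 192 ± 1.62 CPM), Ier3 (108 ± 5.34 and 89.0 ± 2.77 CPM) and Cxcl2 (1.16 ± 0.131 and 0.401 ± 0.191 CPM), each given for IL-4+CGRP and then IL-4 (SD, n = 3 each). By edgeR, Ptgs2 had the smallest adjusted p (1.4e-05) and Cxcl2 the largest (0.0478). Leaving out IL-4+CGRP replicate 1 left 2 called, leaving out IL-4 replicate 1 left 3, and leaving out IL-4 replicate 2 or 3 left 1. A fit with the replicate number as a block also left 2. Leaving out IL-4+CGRP replicate 2 gave 5 higher and 1 lower, beside 6.78% and 7.04% of all tested genes. With a mean count of at least 50 required, 3 were called, since Il1b and Cxcl2 were then not tested. The list was drawn up with earlier results of these libraries known, so its direction is not independent evidence.

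**Figure D5:**
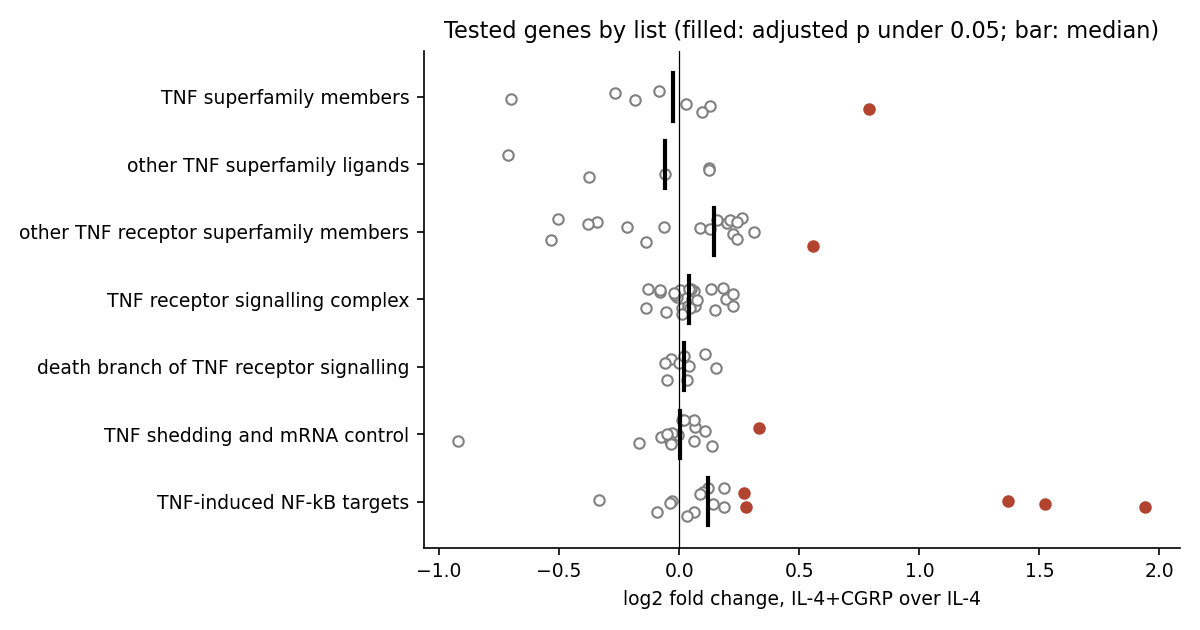
Log2 fold change of IL-4+CGRP over IL-4 for every tested gene of the 9 members and of the 6 lists, 1 point per gene, filled red where the edgeR adjusted p was under 0.05, with a black bar at the median; points are spread vertically only to separate them. The members' points lie between -0.70 and 0.79, and the lists' medians between -0.06 and 0.14.

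The transcripts with the profile nearest to Tnfsf14 were found by the root mean square difference of log2 CPM over the 6 libraries, each gene centred on its own mean. The smallest differences were those of Hcar2 (0.091), Ctla2a (0.11) and Pgf (0.13), against a median of 0.437 over all candidate genes. Hcar2 averaged 4.22 CPM in IL-4+CGRP and 2.27 CPM in IL-4, Ctla2a 6.96 and 4.39 CPM, and Pgf 7.43 and 3.91 CPM. Each was itself called higher (edgeR adjusted p of 0.0159, 0.0409 and 0.00138 in that order). With 3 libraries a group, any gene that differs between the groups by a like amount is near by this measure.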

How the data were processed

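RNA sequencing of 6 libraries of bone marrow-derived macrophages was used, 3 with IL-4+CGRP and 3 with IL-4. Per the labels' protocols, RNA was extracted with TRIzol and libraries were made with a stranded mRNA kit. The submitters' processing notes list HISAT2, StringTie and fastp and the build GRCm39, with no versions; how counting used annotation and strand is not given in the sources used here. The authors deposited estimated counts per gene, which they call raw; in each library 23.3% to 26.6% of the values over 0 were fractional (tolerance 1e-06), and all were rounded before testing. Overlapping genes such as Tnfsf12 have fractional values, and with no strand setting stated, reads of antisense genes cannot be told apart. The authors' group means were used only to check columns, and 0 columns of per-sample values were unassigned. The table's gene length column, deposited by the authors with no definition, was used for TPM.

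Genes were filtered with filterByExpr (13260 kept, 99.91% of counts), scaled by TMM (factors 0.985 to 1.016) and tested two-sided with edgeR 4.0.16 (glmQLFit, robust, groups only; R 4.3.3). The Benjamini-Hochberg adjustment covered every gene tested, and calls needed an adjusted p under 0.05. SEs are the log2 fold change over the square root of F. Alternatives were other scalings, filters, DESeq2 1.42.0, limma-voom (limma 3.58.1), a fit that is not robust, the replicate block, and each library left out. Leaving out 2 libraries and summing the Tnfsf12 locus were added after seeing the data. Scripts were tested on simulated counts. The exact permutation test used scipy 1.17.1 and motifs were searched in Python 3.11.15.

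The members and lists were chosen with earlier results of these data known. Named genes are the 9 members, up to 4 called genes per list by smallest p (2 where none passed) and the 3 profiles nearest to the called member among genes whose mean log2 CPM reached 1. Receptors of the member ligands, Tnfrsf22, Tnfrsf23, Adam17 and Cxcl2 were named after their values were seen. Overlaps between genes are from GENCODE M21. Marker lists beyond those printed (NK cell, neutrophil, mast cell, fibroblast, erythroid, osteoclast) are given in the closing section.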

Additional observations from a re-analysis of the deposited data

How the results depend on the processing

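Over all genes, 307 were called higher and 204 lower; with no count filter the counts were 584 and 434, and without 1 library each they ranged from 140 to 915 and from 80 to 950, both highest without IL-4+CGRP replicate 2. Without both IL-4+CGRP replicate 2 and IL-4 replicate 1 they were 1066 and 1187. Of calls, 60.1% were higher, and 71.2% with library totals alone. Among members, 1 higher and 0 lower became 0 to 1 and 0 to 2 without 1 library each, 2 lower (Tnfrsf1b and Tnfrsf21) with no count filter, and 2 and 2 without both libraries. The cause was not tested. Same-numbered libraries of the groups deviated together at -0.188, -0.182 and 0.13 (correlations of deviations from group means, replicates 1, 2 and 3). Of these, 1 of 3 correlated best with its own number. With 3 libraries a group this check cannot exclude a shared animal or day. Whether the numbers pair the libraries is thus not known. With the replicate block 176 and 86 genes were called, and 0 members either way (Tnfsf14 edgeR adjusted p = 0.0573; Zfp36l1 0.0515, spanning 2.6e-07 to 0.0591 across settings). Of the NF-kB targets 2 were called with the block, against 5 without it, with Tnfaip2 at an edgeR adjusted p of 0.0548 and Ier3 at 0.0733. Tnf, Tnfsf12, Tnfsf13b, Tnfsf14, Tnfrsf1a, Tnfrsf1b and Tnfrsf21 kept their direction in every alternative that tested them. Tnfsf13, 0.03 (log2), ranged from -0.0851 to 0.1178 when 1 library was left out, being negative (-0.0826, -0.0851) for IL-4+CGRP replicate 2 and IL-4 replicate 3. It was -0.0614 with IL-4+CGRP replicate 2 and IL-4 replicate 1 both left out. Depth limits Tnfsf9 and Tnfsf13b, at 5 to 16 and 23 to 43 counts a library.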

Other observations

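Summed marker levels of other cell types are given as CPM ranges over the 3 libraries of each group. NK cell markers (4 of 6 tested, 0 called) summed to 14.5 to 16.7 in IL-4+CGRP and 15.9 to 16.6 in IL-4. Neutrophil markers (5 of 7 tested, 0 called, Ly6g at 0 in all libraries) summed to 382 to 420.4 in IL-4+CGRP and 346 to 390.0 in IL-4, nearly all of it Csf3r. Mast cell markers (2 of 5 tested, 0 called) summed to 3.78 to 4.04 in IL-4+CGRP and 4.83 to 5.11 in IL-4. Fibroblast markers (6 of 7 tested, 0 called) summed to 48.7 to 54.7 in IL-4+CGRP and 43.6 to 46.8 in IL-4. No erythroid marker of 4 was tested, and their sum was at most 0.225 in IL-4+CGRP and 0.282 in IL-4. Osteoclast markers (5 of 6 tested) summed to 82.3 to 86.9 in IL-4+CGRP and 99.9 to 106 in IL-4, and 3 fell by edgeR's test: Acp5, a phosphatase (63.4 and 76.3 CPM on average), and the fusion proteins Ocstamp (1.79 and 6.28 CPM) and Dcstamp (2.46 and 5.82 CPM), each given for IL-4+CGRP and then IL-4. The part of these cells in the results for the TNF superfamily was not tested.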
